A study of Mus musculus with 18 samples.

Results

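The genes described here are 39 interferon-stimulated genes and their transcription factors, in immune cells sorted from atherosclerotic mouse arteries. They were chosen by gene symbol from a fixed list, and all 39 were found among the 23337 symbols of the count table. All 39 also passed the filter on low counts, which left 17143 genes for testing.

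Type I interferons are secreted proteins, interferon-beta and the interferon-alpha family, that cells make after their sensors meet foreign or misplaced nucleic acid. They bind the receptor encoded by Ifnar1 and Ifnar2, whose kinases Jak1 and Tyk2 activate STAT2, which joins IRF9 in a complex that binds the interferon-stimulated response element of target genes. The targets include antiviral effectors, the sensors themselves and IRF7, which drives further interferon transcription, and macrophages of arterial lesions are among the cells known to express them.

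The labels give male and female Apoe-/- mice on the C57BL/6 background for the study, and not the sex behind each library. All mice carried the reporters Cx3cr1GFP and Cd11cYFP. They lack apolipoprotein E and become hypercholesterolaemic, and they were 7 months of age after 5 months on Western diet. Live CD45+ cells, which are leukocytes, were sorted from digested aortas and carotid arteries into cells with GFP alone (GFP, n = 6), both reporters (DP, n = 4), YFP alone (YFP, n = 5) or neither (DN, n = 3). GFP reports Cx3cr1, a chemokine receptor of monocytes and tissue macrophages, and YFP reports CD11c, an integrin encoded by Itgax that marks dendritic cells and some macrophages. Each reporter follows the activity of its promoter and not a cell lineage, and there was no group without the Apoe deletion, the reporters or the diet.

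Total counts per library lay between 9790946 and 27742113 in 17 libraries, and YFP 6 had 289166. Ptprc, which encodes CD45, was read in all 18 libraries at 439 CPM or more, where CPM is counts scaled to 1000000 per library after TMM normalization. Some libraries went against their labels. Cx3cr1 was at 0.427 CPM in DP 5 and at 9.43 CPM in DP 4, against 134 CPM in DN 6 and 142 CPM in DN 3. Itgax was at 38.6 and 47.8 CPM in DP 4 and 5 against 332 and 297 CPM in DN 3 and 6. In YFP 6, Cx3cr1 was at 104 CPM and Itgax at 89.6 CPM, against 80.9 to 165 CPM and 107 to 191 CPM in GFP. Cx3cr1 was at 60.7 and 60.0 CPM in YFP 3 and 4. Of all tested genes, 29.2% had their lowest value of the 18 libraries in DP 5, 37.1% in YFP 5 and 28.1% in the shallow YFP 6, and at most 19.5% in any other library. The highest value fell in these 3 libraries for 15.1%, 18.5% and 13.0432% of genes. Of the 39 interferon genes, 12 had their highest and 11 their lowest value in DP 5, and 7 and 10 in YFP 5, while YFP 6 had 0 and 2. The summed CPM of 5 neutrophil markers (of 6 listed, none at 0 throughout) was 38062 in DP 5 and at most 1972 elsewhere, and the sum of 8 macrophage markers was highest in YFP 5, at 121938 CPM. What part these cells have in the values of the interferon genes was not tested, and results are given with and without both libraries. The labels do not say whether libraries of a subset came from separate mice, so p-values measure the spread between these libraries only. In sorted bulk samples, fewer cells of a type and less RNA per cell cannot be told apart.

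Promoters of 6 members are shown first, because the response element is a feature that interferon-stimulated genes are known to share. Ifit1, Ifit2, Rsad2 and Oasl1 are shown for the pattern by replicate number described further on, and Isg15 and Bst2 for their overlapping matches, both chosen after values were seen. RefSeq promoters of the assembly GRCm38.p6, from 250 bases before to 50 after the start, were matched by symbol for 29 of the 39 genes. Both strands were searched for GAAANNGAAA, the core of the response element, in which N is any base and matches may overlap each other. It was present in 15 of the 29 (51.7%), against 1079 of all 27025 symbols with a promoter (3.99%). A second motif, TTCNNNGAA, which STAT dimers are known to bind, was in 8 of the 29 (27.6%) and in 9.55% of all symbols. Below, the bases before the start are printed 5′ to 3′ on the strand of the gene, with each GAAANNGAAA match, in either orientation, in capitals. Ifit1 (chr19:34640739-34640870, plus strand), Rsad2 (chr12:26456453-26456602, minus strand), Isg15 (chr4:156200819-156200968, minus strand) and Bst2 (chr8:71537473-71537622, minus strand) hold matches. Oasl1 (chr5:114923090-114923239, plus strand) and Ifit2 (chr19:34550544-34550693, plus strand) have none in these windows.
Ifit1: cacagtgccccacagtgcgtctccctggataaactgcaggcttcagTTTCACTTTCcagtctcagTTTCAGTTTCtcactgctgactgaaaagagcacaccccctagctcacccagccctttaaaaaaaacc
Rsad2: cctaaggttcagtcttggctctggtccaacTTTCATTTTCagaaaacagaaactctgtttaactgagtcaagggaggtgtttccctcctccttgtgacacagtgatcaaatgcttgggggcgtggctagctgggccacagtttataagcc
Isg15: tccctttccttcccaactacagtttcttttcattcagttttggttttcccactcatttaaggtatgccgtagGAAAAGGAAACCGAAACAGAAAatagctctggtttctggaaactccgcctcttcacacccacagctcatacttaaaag
Bst2: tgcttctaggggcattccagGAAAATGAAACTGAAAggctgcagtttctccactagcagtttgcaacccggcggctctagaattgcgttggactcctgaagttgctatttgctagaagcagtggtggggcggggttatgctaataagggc
Oasl1: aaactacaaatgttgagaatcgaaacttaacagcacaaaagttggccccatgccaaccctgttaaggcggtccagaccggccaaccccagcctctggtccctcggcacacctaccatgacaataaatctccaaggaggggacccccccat
Ifit2: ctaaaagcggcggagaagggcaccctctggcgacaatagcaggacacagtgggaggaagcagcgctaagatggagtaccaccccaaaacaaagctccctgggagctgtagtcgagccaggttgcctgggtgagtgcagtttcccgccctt
A match describes these letters only. Isg15 has 3 overlapping matches in a row and Bst2 has 2, while Ifit1 has 2 that lie apart. The start of Ifit1 in the annotation used for coordinates lies before the RefSeq start, and the printed window ends ahead of it.

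The interferon genes were expressed in all 4 subsets, and GFP cells most often held the highest median level. The median CPM was highest in GFP for 28 of the 39 genes, in DP for 1, in YFP for 5 and in DN for 5. Over all 17143 tested genes, GFP held the highest median for 22.3%, DP for 36.7%, YFP for 20.4% and DN for 20.7%. Without DP 5 and YFP 5 the number of interferon genes highest in GFP was 29, and without GFP 3, the GFP library with the most of them above their median, it was 21. With all libraries, the lowest median fell in DP for 16 genes and in DN for 13, against 23.4% and 22.3% of all genes. These counts describe the libraries and carry no test.

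The heatmap of levels by library shows the pattern behind these counts. Each gene was set against its own median over the 18 libraries. In GFP libraries 23 to 36 of the 39 genes were above that median, with a GFP median of 25.5, and in the 12 other libraries 9 to 23 were. GFP 3 had 36, and DN 3 had 23, the most outside GFP. Among all tested genes 43.1% to 60.7% were above their median in GFP libraries and 37.0% to 60.1% in the others. GFP 2 and DN 3 each had 23 of the 39 above, against 60.7% and 46.5% of all genes. Beside this, the sum of 10 dissociation genes, such as Fos and Jun, was 23455 to 35177 CPM in GFP and 9602 to 28884 CPM in the other libraries, and the sum of 6 fibroblast markers was 227 to 1019 CPM in GFP and 824 to 11323 CPM elsewhere. Their part in the levels of the interferon genes was not tested.

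**Figure D1:**
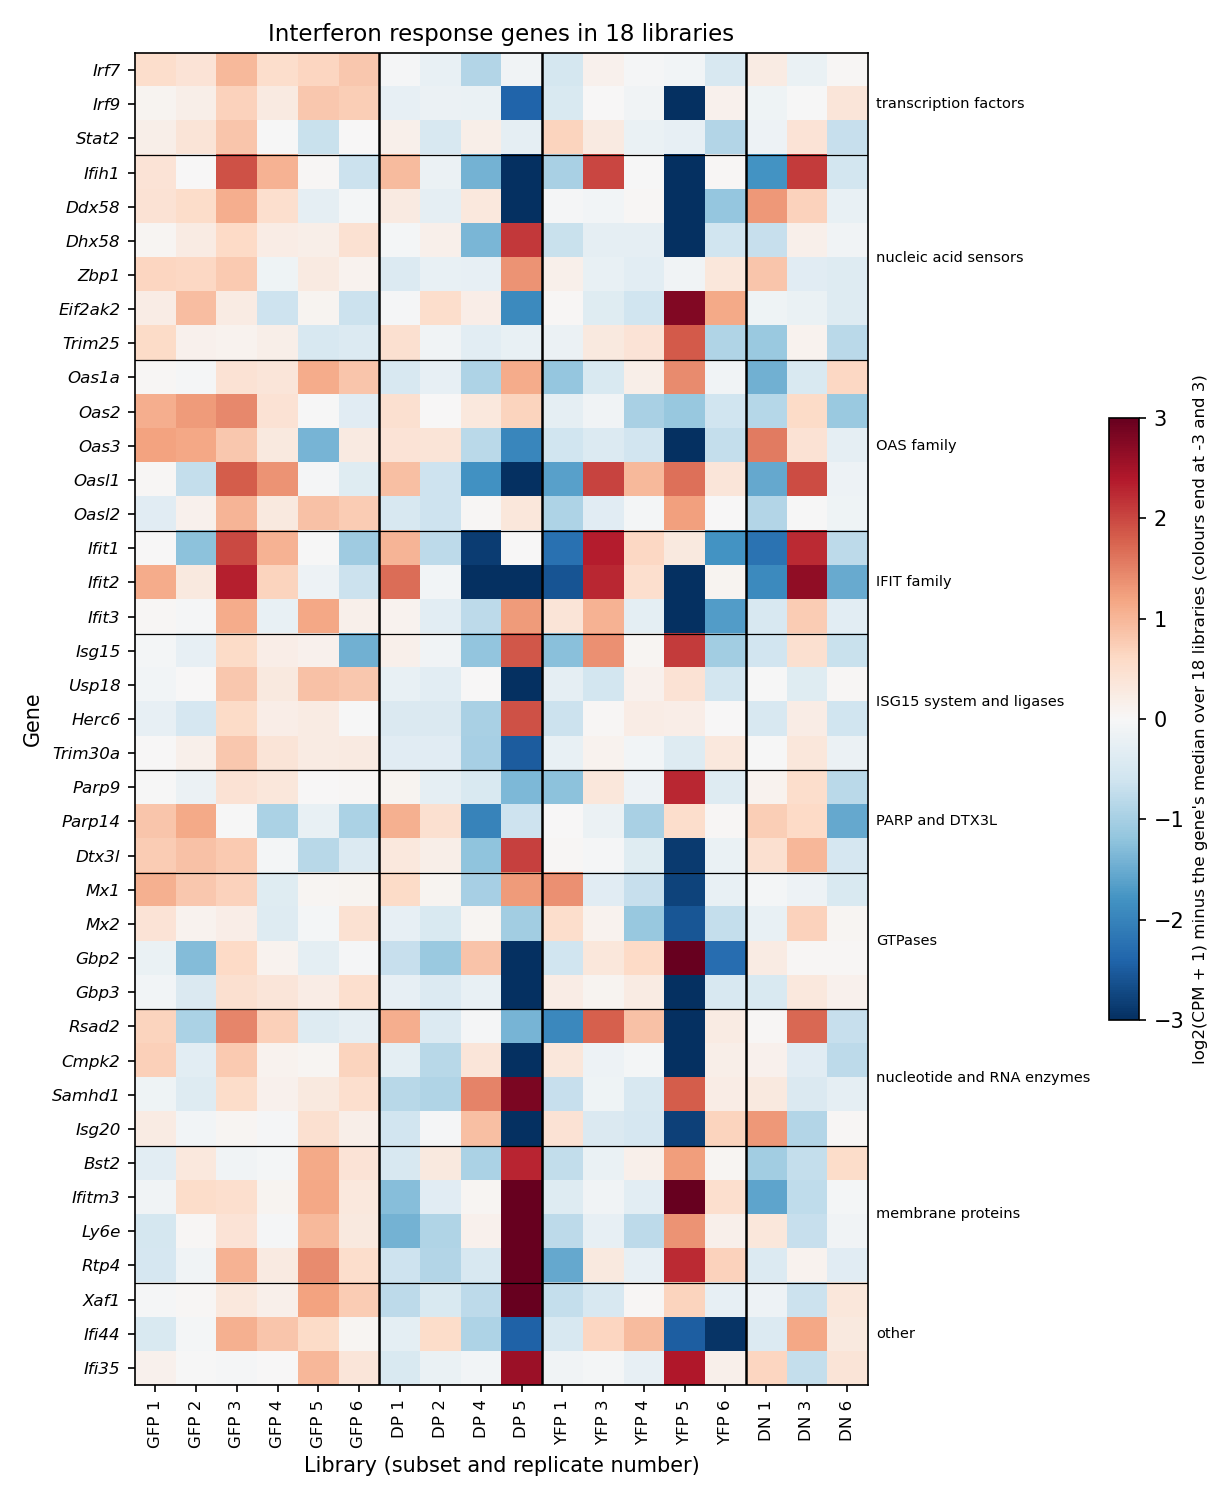
Level of each of the 39 interferon response genes (rows, grouped by role) in each of the 18 libraries (columns, grouped by subset), as log2(CPM + 1) minus the median of the gene over the 18 libraries, with colours ending at -3 and 3. GFP columns are mostly above the median, and DP 5 and YFP 5 hold the most extreme values, with 12 and 7 of the 39 genes at their highest.

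**Figure D2:**
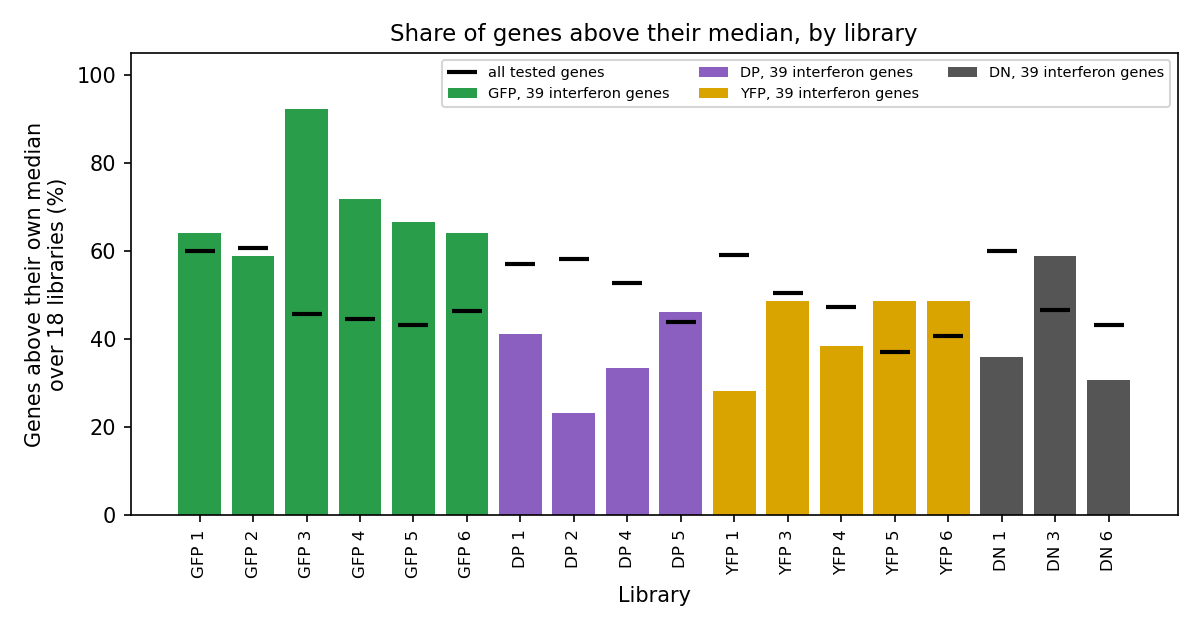
Share of the 39 interferon genes above their own 18-library median in each library (bars, percent, coloured by subset) and the same share over all tested genes (black dashes). The bars of GFP stand for 23 to 36 genes, and the bars of the other subsets for 9 to 23.

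No interferon gene passed the threshold of an adjusted p of 0.05 in edgeR's quasi-likelihood test between any pair of subsets. This was 0 of 39 in each of the 6 pairs, against a background of 0% of all tested genes called between YFP and GFP, 0.198% between DP and GFP, and 0% in each of the other 4 pairs. In the test of any difference between the 4 subsets, 0 of 39 were called, and 0.332% of all genes. At an unadjusted p under 0.05 there were 3 of 39 interferon genes (7.69%) between YFP and GFP, against 7.02% of all genes. Between DP and GFP there were 3 (all genes, 6.84%) and between YFP and DP 3 (6.73%). There were 0 between GFP and DN (1.35%), 2 between DP and DN (2.71%) and 1 between YFP and DN (2.69%). The test of any difference had 1 (6.96%). DESeq2 called 0 of 39 in each pair and in the test of any difference. Of all genes it called 0% (GFP versus DN) to 2.11% (DP versus GFP) in the pairs, and 2.50% in the test of any difference. Limma's voom with sample weights called 12 between DP and GFP, where it called 20.1% of all genes. In the test of any difference it called 2 of 39 (Irf7 and Oasl2) and 6.49% of all genes. It called 0 of 39 in the other pairs. Of all genes it called 2.61% between YFP and GFP, 0.0175% between GFP and DN and 0% in the remaining pairs. Most log2 fold changes against GFP were below 0: 27 of 39 between YFP and GFP, with a median of -0.35 (all genes, 0.04), and 28 of 39 between DP and GFP, with a median of -0.35 (all genes, 0.20). With RLE size factors in place of TMM, these counts were 22 and 23, and the median of all genes moved to 0.20 and 0.38. Without DP 5 and YFP 5 they were 34 and 32. Without GFP 3 alone they were 19 and 17, and the medians were 0.04 and 0.11 (all genes, 0.14 and 0.41). The sign of the median thus depended on that library, while both medians stayed below those of all genes. Without YFP 1, YFP 3, YFP 4, YFP 5 or DN 3, each outside the pair, 21 of 39 were lower between DP and GFP. The median of all genes was then 0.48 to 0.50. Without GFP 4, 5 or 6 there were 21 to 23 lower in that pair (all genes, 0.36 to 0.39). Leaving out 1 library other than GFP 3 gave 21 to 32 lower in each of these 2 comparisons, so the counts of 27 and 28 depended on several libraries. The comparisons of YFP and of DP with GFP use the same GFP libraries. Between GFP and DN 26 of 39 were higher in GFP, with a median of 0.28 (all genes, 0.04). Without GFP 3 the median was -0.00 (all genes, -0.07) and 21 were lower in GFP. With the replicate number as a block, which pairs GFP and DN libraries, 3 of 39 were lower in GFP and the median was 0.45.

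**Figure D3:**
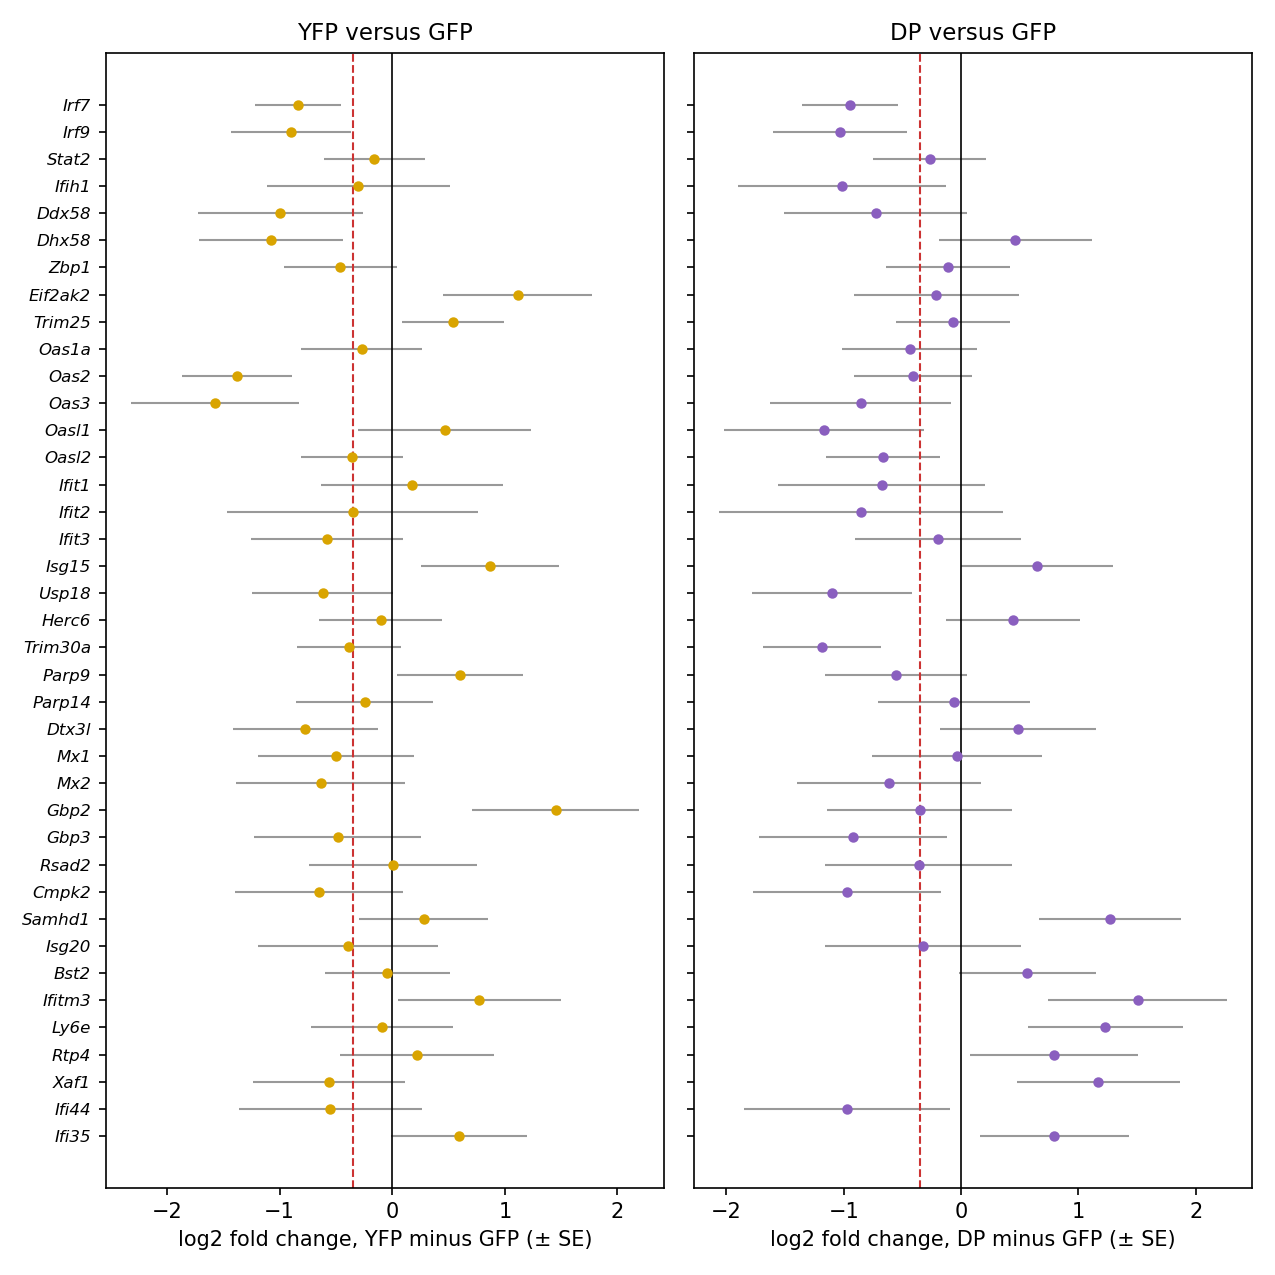
Log2 fold changes (horizontal axis, ± SE) of the 39 interferon genes, in the order of the heatmap, for YFP minus GFP (left) and DP minus GFP (right), from edgeR over 18 libraries. The red dashed line is the median of the 39, -0.35 in both panels, and 27 and 28 of the genes lie below 0.

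The 3 transcription factors were all lower in the mean of YFP and of DP than in GFP, though none passed the test. Irf7, whose product drives interferon transcription, had a lowest value of 139.5 CPM, a median of 158 CPM and a highest of 204 CPM in the GFP libraries. It was at 102, 89.4, 56.0 and 96.0 CPM in DP 1, 2, 4 and 5, at 71.9, 115, 101, 99.1 and 74.6 CPM in YFP 1, 3, 4, 5 and 6, and at 124, 90.01 and 107 CPM in DN 1, 3 and 6. All 6 GFP libraries thus lay above all 12 others. Irf7 was the only one of the 39 with this pattern, which 8 of all tested genes (0.0467%) had, and DN, YFP and DP overlapped each other. The log2 fold change was -0.83 ± 0.38 (SE) between YFP and GFP (edgeR, adjusted p = 0.676) and -0.95 ± 0.41 between DP and GFP (adjusted p = 0.609). Between GFP and DN it was 0.63 ± 0.45 (adjusted p = 0.999977), and this turned to -0.12 without DP 4, DP 5, DN 3 and DN 6, which left DN 1 as the lone DN library. With voom the difference between DP and GFP was -0.90 with an adjusted p of 0.00914. The other 7 genes with GFP above all other libraries were Arrdc2, Cyp39a1, Mefv, Ogfr, Osm, Smpdl3b and Treml4. Treml4, which is a marker of nonclassical monocytes, had a mean of 42.2 CPM in GFP and of 7.24 to 11.3 CPM in the other subsets. The sum of 6 such markers, Treml4 among them, overlapped, at 1526 to 2175 CPM in GFP and 851 to 2722 CPM in the other libraries.

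Irf9, the DNA-binding partner of STAT2, was at a lowest value of 84.2, a median of 113 and a highest of 141 CPM in GFP. It was at 66.5, 70.0, 69.2 and 14.2 CPM in DP 1, 2, 4 and 5, at 57.4, 79.9, 74.1, 6.68 and 86.6 CPM in YFP 1, 3, 4, 5 and 6, and at 72.4, 79.4 and 103 CPM in DN 1, 3 and 6. All DP libraries lay below all GFP libraries, while YFP and DN overlapped GFP. Irf9 was 1 of 3 interferon genes with GFP above DP in every library, with Irf7 and Trim30a, a pattern of 0.770% of all genes. The counterparts were Irf7 and Dhx58 for GFP above YFP (0.583% of all genes) and Irf7 for GFP above DN (0.636%). The log2 fold change of Irf9 was -1.03 ± 0.57 between DP and GFP (adjusted p = 0.887) and -0.90 ± 0.53 between YFP and GFP (adjusted p = 0.828) by edgeR. With voom the former was -0.73 with an adjusted p of 0.0324.

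Stat2 had the least spread of the 39 genes over the libraries, with an SD of 0.47 on the log2(CPM + 1) scale. Its lowest, median and highest values in GFP were 34.7, 59.3 and 100.1 CPM. The DP libraries 1, 2, 4 and 5 were at 61.9, 39.9, 63.4 and 45.9 CPM, the YFP libraries 1, 3, 4, 5 and 6 at 89.6, 67.6, 48.1, 46.8 and 29.9 CPM, and the DN libraries 1, 3 and 6 at 49.8, 74.2 and 34.3 CPM. All 4 subsets overlapped. Its log2 fold changes of -0.16 ± 0.45 (YFP minus GFP) and -0.27 ± 0.48 (DP minus GFP; adjusted p = 0.981 and 0.999985) changed sign under several alternatives.

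**Figure D4:**
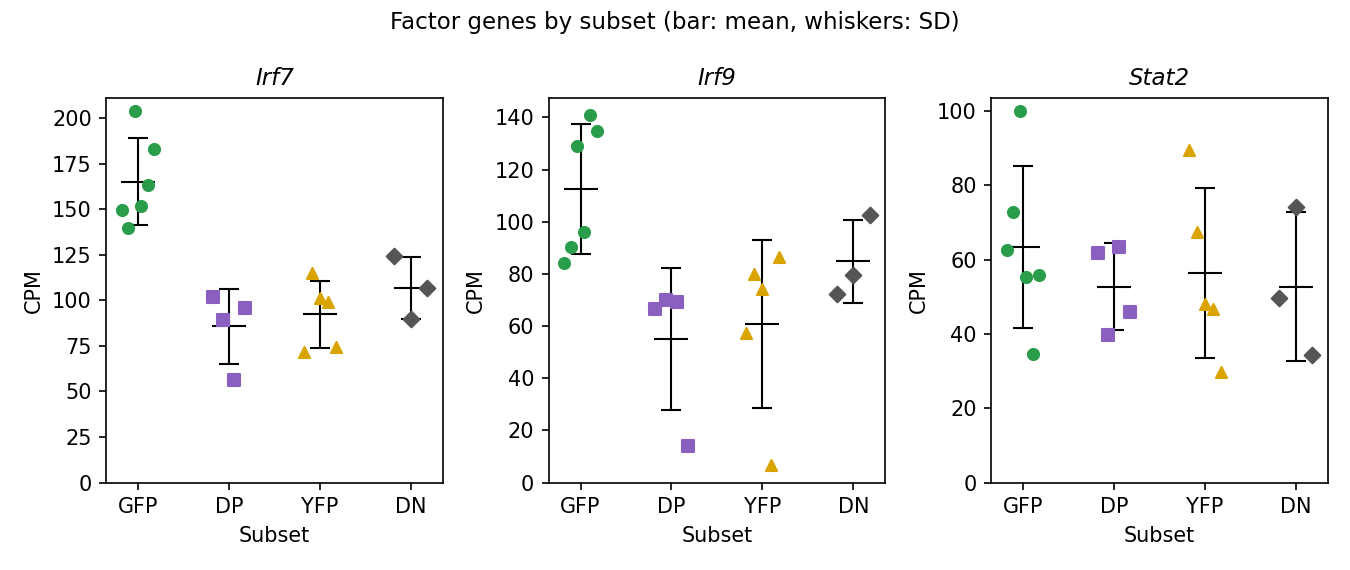
CPM of Irf7, Irf9 and Stat2 (panels) by subset, with 1 point per library, a bar at the mean and whiskers of 1 SD. All 6 GFP points of Irf7 lie at 139.5 CPM or more and all other points at 124 CPM or less, while the subsets overlap for Stat2.

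The 6 genes of nucleic acid sensing had 4 lower fold changes between YFP and GFP and 5 between DP and GFP. Dhx58, which encodes the regulator LGP2, was at 43.1 to 62.9 CPM in GFP and at 1.396 to 34.0 CPM in YFP, so all YFP libraries lay below GFP. The lowest YFP value was that of YFP 5, and DP 5 had the highest of all libraries, 182 CPM. Its log2 fold change between YFP and DP was -1.54 ± 0.70 (edgeR, adjusted p = 0.682). Eif2ak2 encodes PKR, a kinase that stops translation on double-stranded RNA. It was at 95.5 CPM in YFP 5 and at 2.77 to 29.9 CPM in the 17 other libraries, and its log2 fold change of 1.11 ± 0.66 between YFP and GFP (adjusted p = 0.826) became -0.01 without YFP 5, while between YFP and DN it was 1.51 ± 0.85 (adjusted p = 0.999916). Trim25, a ubiquitin ligase that activates RIG-I, was at 602 CPM in YFP 5 and at 76.4 to 251 CPM elsewhere, with a log2 fold change of 1.12 ± 0.57 between YFP and DN (adjusted p = 0.999916). Ddx58, which encodes RIG-I, was at 0.747 CPM in DP 5 and 0.897 CPM in YFP 5, and at 11.9 to 69.8 CPM in the other libraries, with a log2 fold change of -1.27 ± 0.85 between YFP and DN (adjusted p = 0.999916).

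The OAS family, whose enzymes make the activator of the antiviral ribonuclease RNase L, held the smallest p of the 39 in the test of any difference between subsets, that of Oas2. Oas2 was at a lowest value of 43.3, a median of 95.9 and a highest of 151 CPM in GFP. In DP 1, 2, 4 and 5 it was at 76.7, 55.3, 69.2 and 88.1 CPM, in YFP 1, 3, 4, 5 and 6 at 45.7, 50.8, 27.6, 24.6 and 35.8 CPM, and in DN 1, 3 and 6 at 29.8, 82.0 and 25.1 CPM. The 3 highest libraries were GFP 1, 2 and 3, and GFP 6 fell within the range of YFP. The log2 fold change of Oas2 was -1.38 ± 0.49 between YFP and GFP (edgeR, adjusted p = 0.522), -0.97 ± 0.52 between YFP and DP (adjusted p = 0.826) and 1.07 ± 0.58 between GFP and DN (adjusted p = 0.999977). Across the settings tried each of these kept its sign. Oas3 was at a lowest value of 5.22, a median of 23.3 and a highest of 37.0 CPM in GFP, at 20.8, 20.5, 8.27 and 3.20 CPM in DP 1, 2, 4 and 5, and at 47.4, 21.1 and 12.5 CPM in DN 1, 3 and 6. In YFP 1, 3, 4, 5 and 6 it was at 9.87, 11.4, 9.89, 0.299 and 8.96 CPM. The YFP values lay below those of 5 of the 6 GFP libraries, since GFP 5 had the lowest GFP value. Its log2 fold change was -1.57 ± 0.75 between YFP and GFP (adjusted p = 0.706) and -1.75 ± 0.85 between YFP and DN (adjusted p = 0.999916). Oas1a, Oas2, Oas3, Oasl1 and Oasl2 all had lower fold changes between DP and GFP, from -0.41 to -1.17. Between GFP and DN the log2 fold change was 0.83 ± 0.54 for Oasl2 and 0.72 ± 0.65 for Oas1a (edgeR, adjusted p = 0.999977 for both). Oas1a and its near-identical neighbours can share reads, so its level is uncertain.

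The membrane proteins had fold changes above 0 between DP and GFP, and those of Ifitm3 and Ly6e turned below 0 without DP 5. In the 3 other DP libraries Rtp4 was at 28.7 to 38.0 CPM, below a GFP median of 71.4 CPM, and Bst2 was at 38.0 to 91.2 CPM, around a GFP median of 81.3 CPM. Ifitm3 encodes a protein that blocks virus entry at endosomes. It had a lowest value of 359, a median of 511 and a highest of 858 CPM in GFP, 294, 357, 306, 3056 and 546 CPM in YFP 1, 3, 4, 5 and 6, and 127, 227 and 369 CPM in DN 1, 3 and 6. In DP 1, 2, 4 and 5 it was at 159, 305, 399.7 and 5201 CPM. Apart from DP 5 and YFP 5, the range over libraries was thus 127 to 858 CPM. Its log2 fold change between DP and GFP was 1.504 ± 0.76 with all libraries (edgeR, adjusted p = 0.785), -0.68 without DP 5 and -0.81 without DP 5 and YFP 5. Between DP and DN it was 2.65 ± 1.01 (adjusted p = 0.999809) and 0.41 without DP 5. Between GFP and DN it was 1.15 ± 0.89 (adjusted p = 0.999977) and between YFP and DN 1.92 ± 0.95 (adjusted p = 0.999916).

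Ly6e, a lipid-anchored surface protein that limits fusion of some viruses, followed the same libraries. It was at a lowest value of 658, a median of 1077 and a highest of 1891 CPM in GFP, and at 356, 513, 1054 and 8876 CPM in DP 1, 2, 4 and 5. In YFP 1, 3, 4, 5 and 6 it was at 555, 807, 554, 2445 and 1057 CPM, and in DN 1, 3 and 6 at 1219, 588 and 891 CPM. Its log2 fold change between DP and GFP was 1.23 ± 0.66 (adjusted p = 0.842) and -0.62 without DP 5, and between YFP and DP it was -1.32 ± 0.70 (adjusted p = 0.808) and 0.86 without DP 5. Between DP and DN it was 1.59 ± 0.83 (adjusted p = 0.999809) and -0.50 without DP 5. Bst2, the tetherin that holds budding virus at the cell surface, was at 364 CPM in DP 5 and at 35.7 to 179 CPM in all others. Rtp4, a chaperone of receptor transport, was at 457 CPM in DP 5 and 254 CPM in YFP 5, and at 17.7 to 144 CPM in the rest, with a log2 fold change of 1.58 ± 0.90 between DP and DN (adjusted p = 0.999809) that became -0.39 without DP 5. All 4 membrane genes thus had their highest value in DP 5. The summed markers of neutrophils (38062 CPM), classical monocytes (7361 CPM), platelets (4093 CPM) and smooth muscle (2757 CPM) were also highest there. So were those of conventional (662 CPM) and plasmacytoid (327 CPM) dendritic cells. In YFP 5, next highest for each of these 4 genes, the neutrophil sum was 244 CPM and the platelet sum 1417 CPM. What part any of these cells had was not tested. Ifitm1, a close relative outside the 39, had the same peak, 639 CPM in DP 5 and at most 109 CPM elsewhere, and was called in the test of any difference (edgeR, adjusted p = 0.0302). Without DP 5, and with the replicate block, this test called 0 of all genes.

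The enzymes and GTPases also showed single libraries far from the rest. Samhd1, an enzyme that degrades deoxynucleotides and so restricts retroviruses, was at a lowest value of 140.1, a median of 211 and a highest of 269.8 CPM in GFP. It was at 103, 98.0, 514 and 1310 CPM in DP 1, 2, 4 and 5, at 112, 167, 132, 648 and 215 CPM in YFP 1, 3, 4, 5 and 6, and at 223, 135 and 152 CPM in DN 1, 3 and 6. DP 1 and DP 2 were thus its lowest libraries and DP 5 its highest. The log2 fold change was 1.27 ± 0.60 between DP and GFP (edgeR, adjusted p = 0.708) and 1.58 ± 0.76 between DP and DN (adjusted p = 0.999809), and without DP 4, DP 5, DN 3 and DN 6 these were -0.78 and -1.42. Gbp2, a GTPase that attacks vacuoles of intracellular microbes, had a lowest value of 12.8, a median of 30.2 and a highest of 50.5 CPM in GFP. In DP 1, 2, 4 and 5 it was at 19.96, 14.7, 60.1 and 2.03 CPM, in YFP 1, 3, 4, 5 and 6 at 21.5, 42.0, 49.9, 299 and 5.97 CPM, and in DN 1, 3 and 6 at 39.01, 33.9 and 34.0 CPM. The subsets overlapped, with YFP 5 far above the rest. Its log2 fold change was 1.45 ± 0.74 between YFP and GFP (adjusted p = 0.734) and 0.05 without YFP 5, and between YFP and DP it was 1.80 ± 0.86 (adjusted p = 0.721) and -0.09 without DP 5 and YFP 5. Gbp3 was at 0.427 CPM in DP 5 and 0.798 CPM in YFP 5 and at 26.9 to 54.8 CPM in the other libraries. Mx1 and Mx2, GTPases that block influenza and other viruses, were low at 0.698 to 29.2 and 0.0997 to 9.46 CPM, and common C57BL/6 mice carry a defective Mx1 allele. Cmpk2, a mitochondrial nucleotide kinase that neighbours Rsad2 in the genome, was at 0.960 CPM in DP 5 and 0.299 CPM in YFP 5 and at 11.4 to 36.9 CPM in the rest.

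The ISG15 system conjugates a ubiquitin-like protein to other proteins, with Herc6 as its ligase in mice and Usp18 as the protease that reverses it. Isg15 was at 17.96 to 74.6 CPM in GFP, and its highest libraries were YFP 5 with 216 CPM, DP 5 with 184 CPM and YFP 3 with 132 CPM. Usp18, which also blocks the interferon receptor, was at 25.0 to 49.7 CPM in GFP and at 0.427 CPM in DP 5. Herc6 was at 115 CPM in DP 5 and at 14.7 to 45.2 CPM elsewhere. Trim30a, a ligase that dampens inflammatory signalling, was at 53.3 to 93.9 CPM in GFP and at 41.3, 41.5, 26.2 and 8.53 CPM in DP 1, 2, 4 and 5. No DP library reached the GFP range, and the log2 fold change of -1.19 ± 0.50 (edgeR, adjusted p = 0.577) was -0.66 without DP 5 and -0.90 with voom (adjusted p = 0.0133). Xaf1, a protein that promotes cell death, had a lowest value of 24.5, a median of 29.8 and a highest of 59.3 CPM in GFP. It was at 14.1, 17.9, 14.1 and 272 CPM in DP 1, 2, 4 and 5, at 14.7, 17.7, 25.8, 40.0 and 20.9 CPM in YFP 1, 3, 4, 5 and 6, and at 22.4, 15.6 and 31.8 CPM in DN 1, 3 and 6. DP thus held both the lowest values and the highest. Its log2 fold change of -1.73 ± 0.74 between YFP and DP (adjusted p = 0.639) became 0.66 without DP 5, and that of 1.77 ± 0.88 between DP and DN (adjusted p = 0.999809) became -0.51.

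Counts divided by exon length, in CPM per kilobase of the exon union of the GENCODE annotation, put the levels of different genes on 1 scale. The median over 18 libraries was highest for Ifitm3 (567), Ly6e (253), Bst2 (82.2), Isg15 (66.4) and Ifit1 (39.8 CPM per kilobase). It was lowest for Ifi44 (1.10), Mx2 (1.52), Oas3 (2.21) and Eif2ak2 (2.56). Mx2 is annotated as a polymorphic pseudogene and the other 38 are protein-coding. The 39 genes lie on 15 chromosomes, and several are neighbours. Ifit2, Ifit3 and Ifit1 span chr19:34550694-34650009, and Oasl2 and Oasl1 lie at chr5:114896936-114937915.

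A second pattern followed the replicate number of the labels rather than the subset, and it was noticed after the values were seen. Ifit1, Ifit2, Ifih1, Rsad2 and Oasl1 were higher in GFP 3, YFP 3 and DN 3 than in each of the 15 other libraries. These 5 of 39 genes compare with 0.309% of all tested genes that lay above all other libraries in number 3. There was no DP library with this number. Ifit1 encodes a protein that binds viral RNA lacking host cap methylation. It was at 421, 544 and 506 CPM in GFP 3, YFP 3 and DN 3, and at 13.7 to 218 CPM in the others. Ifit2, a partner of Ifit1 in the same family and the gene with the largest spread of the 39, had a lowest value of 44.4, a median of 99.3 and a highest of 356 CPM in GFP, the last in GFP 3. It was at 226, 66.1, 7.68 and 1.39 CPM in DP 1, 2, 4 and 5, at 10.8, 343, 100.001, 2.19 and 74.6 CPM in YFP 1, 3, 4, 5 and 6, and at 17.8, 451 and 24.1 CPM in DN 1, 3 and 6. The highest of the others were DP 1 for Ifit2 and GFP 4 for Ifit1. Ifih1, which encodes MDA5, a sensor of long double-stranded RNA, was at 189, 200.2 and 214 CPM, against 3.20 to 102 CPM. Rsad2 encodes viperin, an enzyme that makes a chain-terminating nucleotide, and was at 147, 185 and 175 CPM, against 1.496 to 113 CPM. Oasl1, a relative of the OAS enzymes that represses Irf7 translation, was at 313, 366 and 347 CPM, against 1.60 to 280.3 CPM. The 3 number 3 libraries, labelled as 3 subsets, thus came close to each other in these 5 genes, which were picked for this pattern. DN 3 is among the libraries that went against their labels in Cx3cr1 and Itgax.

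Outside the 39, the ligand and a chemokine target were highest in the 3 number 3 libraries. They were picked, after values were seen, from the 53 tested genes with this pattern, and are no separate evidence for it. Of the 54 further interferon-stimulated genes tested, only Cxcl10 and Gbp5 had the pattern. Ifnb1, which encodes interferon-beta, was at 108, 107 and 109.9 CPM in GFP 3, YFP 3 and DN 3 and at 0.747 to 72.4 CPM in the other libraries, and Cxcl10, an interferon-induced chemokine, was at 720.1, 684 and 823 CPM against 43.3 to 527 CPM. In a model with subset and number 3 as terms, edgeR called 0 of 39 interferon genes and 0% of all genes between number 3 and the other numbers. At an unadjusted p under 0.05 there were 6 of the 39 and 846 of all genes (4.93%). DESeq2 called 0 of 39 (0% of all genes), and voom called 8 of 39 (0.484% of all genes). Ifit1 had the smallest p of all 17143 genes, with a log2 fold change of 2.76 ± 0.63 between number 3 and the others (adjusted p = 0.856). Ifih1 ranked 2, with 2.53 ± 0.67, and Ifit2 ranked 8, with 3.14 ± 0.90. Rsad2 had a log2 fold change of 1.84 ± 0.67 and Oasl1 of 1.84 ± 0.72. Irf7 had 0.19 ± 0.41, and a difference between it and these genes was not tested. Not all interferon genes had a value above 0 here, as 12 of 39 log2 fold changes were below it (14 with RLE size factors), and the median of all genes was -0.30 (RLE, -0.43). Beside this pattern, the Y-linked Ddx3y was at 91.0 to 126 CPM in the 3 libraries and at most 87.4 CPM elsewhere. Eif2s3y, also Y-linked, was at 42.9 to 48.3 CPM in them and at most 37.6 CPM elsewhere. The Y-linked Kdm5d and Uty lacked the pattern. Kdm5d was at 6.29 CPM in GFP 3 against 16.4 CPM in DN 1. Uty was at 8.65 CPM in YFP 3 against 18.9 CPM in DN 1. Xist, the RNA of the inactive X, was at 1.81 to 4.37 CPM in number 3 and at 1.296 to 39.4 CPM elsewhere. The summed classical monocyte markers were 1411 to 4746 CPM in number 3 and 258 to 7361 CPM elsewhere. What part sex, cell makeup or handling had in the pattern was not tested.

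**Figure D5:**
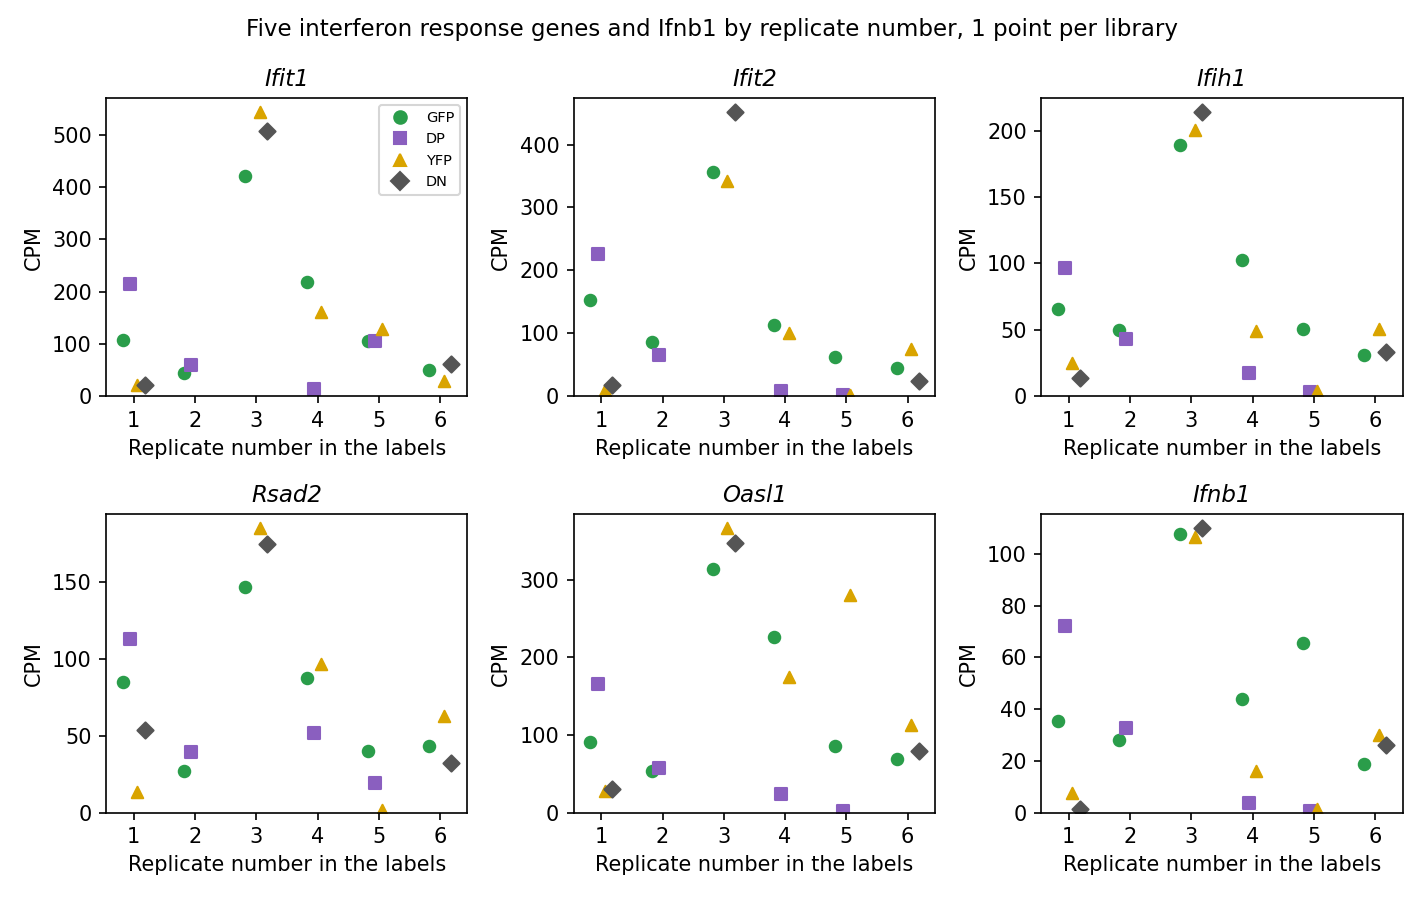
CPM of Ifit1, Ifit2, Ifih1, Rsad2, Oasl1 and Ifnb1 (panels) by the replicate number in the labels, with 1 point per library and the subset as colour and shape. In each panel the 3 libraries of number 3 (GFP, YFP and DN) are above the 15 other libraries, for Ifit1 at 421 to 544 CPM against 218 CPM or less.

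Any difference between the replicate numbers was called by edgeR for 5 of 39 interferon genes, Bst2, Ifi35, Ifitm3, Ly6e and Rtp4, and for 12.7% of all genes. All 5 have their highest value in DP 5. Without YFP 5 alone 0 were called (0.774% of all genes) and without GFP 5 alone 20 were (35.5% of all genes). Without DP 5 and YFP 5 there were 4 called (7.42% of all genes), Dtx3l, Mx1, Oas3 and Parp14, none of them among the first 5. Parp14, a poly-ADP-ribose polymerase family member, was at 57.7 and 72.0 CPM in GFP 1 and 2 and at 16.2 to 31.7 CPM in GFP 3 to 6. Dtx3l, the ligase that pairs with Parp9, was at 41.7 and 44.99 CPM in GFP 1 and 2 and at 12.95 to 42.1 CPM in GFP 3 to 6.

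The genes varied together only in part. Over all 18 libraries the mean Pearson correlation over the 741 pairs of the 39 genes, on log2(CPM + 1), was 0.08, and over all tested genes it was 0.04. Over the 16 libraries without DP 5 and YFP 5 it was 0.20 among the interferon genes and 0.01 over all genes, and within the 6 GFP libraries it was 0.18 and 0.03. All these values share the libraries, their depth and their scaling, and they are given as a description. The 10 pairs among Ifit1, Ifit2, Ifih1, Rsad2 and Oasl1 had a median correlation of 0.66 over 18 libraries and 0.91 over 16, but these genes were picked for a shared pattern. Over the 15 libraries without DP 5, YFP 5 and YFP 6, Trim30a (0.86), Herc6 (0.85), Ifit2 (0.79), Parp9 (0.78) and Ifih1 (0.77) followed the mean of the other 38 genes most closely. Isg20, an exonuclease (-0.46), Ifi35 (-0.05) and Eif2ak2 (-0.05) did so least. Irf7 was at 0.75 and Stat2 at 0.27.

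Upstream genes of the pathway were expressed in the libraries that expressed the targets. Ifnar1 was at 190 to 497 CPM and Ifnar2 at 191 to 363 CPM in GFP, and both overlapped between the subsets. Of 27 receptors, kinases and ligands 24 were in the table and 10 were tested, since no interferon-alpha gene passed the filter, and edgeR called 0 of the 10 in each pair. Of the tested members of 4 other lists, 23 of nucleic acid sensing and induction, 54 further interferon-stimulated genes, 18 negative regulators and 22 of the interferon-gamma axis, none was called between any pair. DP versus GFP gave lower values for 19 of the 23 induction genes (median -0.58) and 18 of the 22 interferon-gamma genes (median -0.22), against 40.6% of all genes. In that pair 35 of the 54 further interferon-stimulated genes and 11 of the 18 negative regulators were lower. YFP versus GFP gave lower values for 36 of the 54 further interferon-stimulated genes (median -0.35), against 48.3% of all genes. There, 14 of the 23 induction genes, 13 of the 22 interferon-gamma genes and 12 of the 18 negative regulators were lower. These list counts were not repeated under the other settings. In the 5 lists the number with an unadjusted p under 0.05 was at most 5 in any pair. These were 5 of the 54 further interferon-stimulated genes (9.26%), between DP and GFP and between DP and DN. Of all genes, 6.84% and 2.71% had such a p there. The test of any difference called Ifitm1, a call lost without DP 5 and with the replicate block, and no other gene of the lists.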

How the data were processed

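Per the labels' protocols, cDNA was amplified for 11 cycles by SMART-seq v4 and tagged with Nextera XT. The submitters' processing notes name TopHat 1.4.1, SAMtools, HTSeq 0.7.1 and the build mm10. Annotation and strand setting are not given in the sources used here, and overlapping, antisense or near-identical genes may have exchanged reads. The values the authors deposited are raw counts, 1 whole number for each gene and library, and these counts were tested as they stood. No pair of libraries within a subset was alike enough to be 1 library deposited again (lowest chi-square per degree of freedom, 16.4).

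The test was edgeR's quasi-likelihood test (edgeR 4.0.16, R 4.3.3, filterByExpr, TMM, robust fit, 1 mean per subset over 18 libraries). Benjamini-Hochberg adjustment was over all 17143 genes, with a threshold of 0.05. The code was tried on simulated data, with the pass set at a spread between libraries below that of these data. That trial does not show what differences the test could find here. Each SE is the log2 fold change divided by the square root of F. DESeq2 1.42.0, limma 3.58.1, RLE size factors, no filter, a replicate block and left-out libraries were the alternatives. CPM use TMM-scaled library sizes. Reads carry no molecular identifiers, and total counts were 289166 to 27742113 per library.

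The members, lists and roles were chosen with earlier results of these data known. Fold changes with errors are printed for members among the 5 smallest p of a pair and for Irf7, Irf9 and Stat2 against GFP (the limit to GFP was set after values were seen). Values by library (for GFP, the lowest, median and highest) are printed for the 8 members with the smallest p over the subsets, for these factors and for the members with the most and least spread. Other members given by range, and the tests of replicate numbers, were chosen after values were seen. Coordinates and exon lengths are from GENCODE vM21 (mm10), which held all 39 symbols.

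Pairing was checked by how far libraries that share a number depart together from the mean of their subset, as a correlation over genes. Every correlation was above 0.1 for DP and GFP (0.16 to 0.42), YFP and DP (0.16 to 0.34) and GFP and DN (0.57 to 0.67), so these numbers were taken to pair the libraries. This was not so for YFP and GFP (lowest -0.02), YFP and DN (lowest -0.09) or DP and DN (-0.22, 1 pair). Both lowest values with YFP were those of number 6, which holds the shallow YFP 6. For YFP and GFP, numbers 1, 3, 4 and 5 gave 0.41 to 0.51. For YFP and DN, numbers 1 and 3 gave 0.49 and 0.45. What part the depth of YFP 6 had in the low values was not tested. 1 gene of the pathway outside the 39 is not reported here.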

Additional observations from a re-analysis of the deposited data

Results flagged for a closer look

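Of 45 groups examined, 15 genes in each of GFP, DP and YFP, 13 held a library far from the others of its subset by Dixon's criterion. Chance flags about 1 in 20 groups, but the genes were not chosen apart from these values: 5 of the 15 were taken for the number 3 pattern and most others for a small p, so the count cannot be read against that rate. DP 5 accounted for 4 and YFP 5 for 5 of them. In DP 5 these were Ifitm3 (5201 CPM, others 159 to 399.7), Xaf1 (272 CPM, others 14.1 to 17.9), Ly6e (8876 CPM, others 356 to 1054) and Irf9, which was low (14.2 CPM, others 66.5 to 70.0). In YFP 5 they were Ifitm3 (3056 CPM, others 294 to 546), Samhd1 (648 CPM, others 112 to 215), Gbp2 (299 CPM, others 5.97 to 49.9), Ly6e (2445 CPM, others 554 to 1057) and Oas3, which was low (0.299 CPM, others 8.96 to 11.4). The remaining 4 lay in number 3, in genes chosen for being high there. Ifit2 was at 356 CPM in GFP 3 (others 44.4 to 153) and at 343 CPM in YFP 3 (others 2.19 to 100.001), Ifit1 was at 544 CPM in YFP 3 (others 21.5 to 162), and Ifih1 was at 200.2 CPM in YFP 3 (others 4.09 to 50.8).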

How the results depend on the processing

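With the replicate block, edgeR called 0 interferon genes in each pair and in the test of any difference, the genes called in the whole table went from 34 to 0 between DP and GFP and from 57 to 0 over the subsets, and no other call of the paired comparisons changed. Without GFP 3 the medians against GFP lost their sign, as given above. Leaving out each library in turn gave medians from -0.27 to 0.64 (DP versus DN), -0.38 to 0.11 (DP versus GFP), -0.24 to 0.34 (YFP versus DN), -0.31 to 0.12 (YFP versus DP), -0.41 to 0.0400 (YFP versus GFP) and -0.00 to 0.33 (GFP versus DN), 0 interferon genes called in every pair, and 0 to 20 over the replicate numbers. With libraries of numbers 1 and 2 alone, where YFP and DN hold 1 library each that is assumed to vary like the others, 9 were called over the subsets (18.1% of all genes), 9 between DP and DN (14.1%), 5 between GFP and DN (12.5%), 4 between YFP and DN (9.84%), 1 between YFP and DP (8.15%) and 1 between YFP and GFP (7.83%). Voom called 12 between DP and GFP (20.1% of all genes), 2 over the subsets (6.49%) and 8 for number 3 (0.484%). Its median between DP and DN was -0.31. Over the replicate numbers DESeq2 called 17 (30.4% of all genes), voom 28 (61.5%) and RLE size factors 9 (15.6%).

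Several fold changes turned sign, and the cause was not tested. With voom they were, for DP versus GFP, Ifitm3 -1.02, Ly6e -1.20 and Samhd1 -0.92, for DP versus DN, Ifitm3 -0.0211, Ly6e -0.57, Rtp4 -0.64, Samhd1 -0.32 and Xaf1 -0.26, for YFP versus DP, Ly6e 0.58 and Xaf1 0.34, and for Eif2ak2 -0.14 (YFP versus DN) and -0.22 (YFP versus GFP). Without DP 4, DP 5, DN 3 and DN 6 they were, for DP versus GFP, Ifitm3 -0.94, Ly6e -1.12 and Samhd1 -0.78, for DP versus DN, Ly6e -1.76, Rtp4 -0.60, Samhd1 -1.42 and Xaf1 -0.75, for YFP versus DP, Ly6e 1.37 and Xaf1 0.56, for GFP versus DN, Irf7 -0.12 and Stat2 -0.15, and Stat2 0.0226 for YFP versus GFP. With numbers 1 and 2 alone they were, for DP versus GFP, Ifitm3 -0.93, Ly6e -0.85 and Samhd1 -0.56, for DP versus DN, Ly6e -1.65, Rtp4 -0.48, Samhd1 -1.30 and Xaf1 -0.64, Ly6e 0.47 for YFP versus DP, and for YFP versus GFP, Eif2ak2 -0.44 and Stat2 0.58. Without DP 5 and YFP 5, chosen after seeing the data, they were, for DP versus GFP, Ifitm3 -0.81 and Ly6e -0.75, for DP versus DN, Ly6e -0.47, Rtp4 -0.43 and Xaf1 -0.56, for YFP versus DP, Gbp2 -0.0896, Ly6e 0.0622 and Xaf1 0.27, and Eif2ak2 -0.12 for YFP versus GFP. Stat2 for YFP versus GFP was 0.0292 with DESeq2 and 0.0163 with RLE size factors. Leaving out 1 library gave ranges of -0.68 to 2.35 (Ifitm3) and -0.62 to 2.09 (Ly6e) for DP versus GFP, -0.50 to 2.06 (Ly6e), -0.39 to 2.24 (Rtp4) and -0.51 to 2.34 (Xaf1) for DP versus DN, -2.51 to 0.86 (Ly6e) and -2.67 to 0.66 (Xaf1) for YFP versus DP, -0.0146 to 1.72 for Eif2ak2 in YFP versus GFP, and for Stat2 -0.37 to 0.21 (DP versus GFP), -0.0290 to 0.35 (GFP versus DN) and -0.28 to 0.16 (YFP versus GFP). YFP 6, with 289166 counts, limits what a low gene can show there.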
